A study of Homo sapiens with 8 samples.

Results

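Long noncoding RNAs were followed in cancer stem cells (CSCs) of the breast cancer line MDA-MB-231 after stable knockdown of CDH2 or Cx43. The 10 RNAs were chosen by name, and all 10 have a row among the 12939 genes measured. MALAT1 and NEAT1 stay in the nucleus, and the other 8, GAS5, SNHG1, SNHG5, SNHG6, SNHG7, SNHG8, SNHG12 and SNHG15, are hosts of small nucleolar RNAs (snoRNAs). MALAT1 was lower in both knockdowns than in the scramble control, and lowest with Cx43 shRNA. SNHG6 was lower with CDH2 shRNA. NEAT1 and the remaining hosts did not pass the test in either knockdown.

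The cells came from a triple-negative human line stably transfected with GFP under the Oct4a regulatory region (pOct4a-GFP), and the GFP-hi fraction was taken as CSCs. All groups, the control included, also carried the RFP vector pRFP-C-RS, were selected with puromycin in medium with G418, and were sorted as GFP-hi and RFP-hi cells. The vector held scramble shRNA in 3 libraries, CDH2 shRNA in 3 and Cx43 shRNA in 2. For CDH2 the methods name clone B as the choice, without stating whether that is a clone of cells or an shRNA construct. The sorted cells recovered overnight before total RNA was isolated and depleted of ribosomal RNA. CDH2 encodes N-cadherin and GJA1 encodes Cx43, the gap junction protein connexin 43. Neither target's own transcript was analysed here, which leaves the 2 knockdowns unchecked here at the RNA level. The paper reports checking both at the protein level by Western blot. Each line may be 1 culture sampled repeatedly, in which case the p-values measure only the spread between these libraries, which may be technical.

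MALAT1 is a long single-exon RNA of nuclear speckles, the bodies that store splicing factors. NEAT1, transcribed from the same chromosome arm, is the scaffold of paraspeckles, which form around its long isoform. MALAT1 and the long isoform of NEAT1 end without the usual poly(A) tail. RNase P cuts the MALAT1 precursor ahead of a tRNA-like RNA, which leaves the cell nucleus as mascRNA, and the new end of MALAT1 folds into a triple helix around an A-rich stretch. The snoRNA hosts work differently. Their introns release snoRNAs that guide the chemical modification of ribosomal RNA, while many of their spliced exons are degraded by nonsense-mediated decay during translation. Several start with a run of pyrimidines (a 5′ terminal oligopyrimidine, or TOP, tract) as the mRNAs of ribosomal proteins do, and GAS5 (growth arrest specific 5) is named for its accumulation in cells that stop growing.

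The parts of these RNAs that the background turns on are shown here from hg38. The first pair is the 3′ end of MALAT1 at chr11:65506017-65506116 on the plus strand, with its longest run of A in capitals (13 bases), and the mascRNA that follows it at chr11:65506117-65506174, 58 bases long.
MALAT1 3′ end: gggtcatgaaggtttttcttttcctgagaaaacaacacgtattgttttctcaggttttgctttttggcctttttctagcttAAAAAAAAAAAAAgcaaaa
mascRNA: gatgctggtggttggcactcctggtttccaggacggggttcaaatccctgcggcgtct

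The hosts differ in the class of their snoRNAs. RefSeq places 30 snoRNAs within the 10 genes, 22 of them SNORD (box C/D, guides of ribose methylation) and 8 SNORA (box H/ACA, guides of pseudouridylation). GAS5 holds 11, SNHG1 holds 8, SNHG12 holds 4, SNHG5 and SNHG7 hold 2 each, SNHG6, SNHG8 and SNHG15 hold 1 each, and MALAT1 and NEAT1 hold 0. Examples of both classes are given below to show what the introns carry. In the box C/D snoRNAs, the capitals mark box C (TGATGA) and the last box D (CTGA). In the box H/ACA snoRNA they mark the ACA box, 3 bases from the 3′ end. All are on the minus strand except SNORA24, which is on the plus strand.
SNORD44 (GAS5, chr1:173865968-173866028): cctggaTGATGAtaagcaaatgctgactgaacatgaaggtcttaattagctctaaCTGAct
SNORD50A (SNHG5, chr6:85677294-85677368): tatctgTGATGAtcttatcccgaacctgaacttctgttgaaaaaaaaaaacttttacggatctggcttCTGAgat
SNORD50B (SNHG5, chr6:85677589-85677659): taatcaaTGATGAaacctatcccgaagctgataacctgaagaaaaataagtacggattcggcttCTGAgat
SNORA24 (SNHG8, chr4:118279190-118279320): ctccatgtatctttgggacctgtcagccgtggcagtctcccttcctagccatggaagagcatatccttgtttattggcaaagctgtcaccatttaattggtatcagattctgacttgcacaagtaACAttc

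Start sites were read for pyrimidine tracts because hosts with a TOP tract share that feature with ribosomal protein mRNAs, whose values are compared further on. A tract was a C followed by at least 4 bases of C or T on the strand of the gene, beginning within 5 bases of the annotated start. The windows run 30 bases to either side of the start in RefSeq (GRCh38.p14), and the capitals mark the tract.
SNHG5 (chr6:85678704-85678763, minus strand): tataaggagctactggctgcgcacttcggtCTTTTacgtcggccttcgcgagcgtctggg
SNHG7 (chr9:136728155-136728214, minus strand): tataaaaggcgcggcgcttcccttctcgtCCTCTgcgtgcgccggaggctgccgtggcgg
SNHG8 (chr4:118278732-118278791, plus strand): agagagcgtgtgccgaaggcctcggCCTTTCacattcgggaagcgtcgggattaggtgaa
SNHG12 (chr1:28581844-28581903, minus strand): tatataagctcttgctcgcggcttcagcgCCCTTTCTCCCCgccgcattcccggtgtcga
SNHG1 (chr11:62855856-62855915, minus strand): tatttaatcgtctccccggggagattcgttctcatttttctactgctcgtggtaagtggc
Of 8 start entries for 7 of the RNAs, 5 hold such a tract, 4 of them in the hosts SNHG5, SNHG7, SNHG8 and SNHG12 and 1 in a start of MALAT1. The same letters are at 21.1% of the 35116 starts in the table. In SNHG8 the 6 bases begin 5 before the annotated start, so they lie mostly upstream of it. SNHG1 and GAS5 have none at the listed start, which says only that no such tract begins within 5 bases of it. In SNHG1 an A interrupts the pyrimidines at the start. The RefSeq start of GAS5 (173869045) also differs from its GENCODE start (173868882). No start was read for NEAT1, SNHG6 and SNHG15, so the count says nothing about them.

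The level of each gene is given as log2(CPM + 1), where CPM is the read count scaled to a common library total, and a difference of 1 on this scale is close to a 2-fold change for all but the lowest genes. Turned back to CPM, the genes of a library sum to between 684410 and 727083. The depth of the libraries is unknown. Weakly expressed genes had been dropped, and no row has a highest value below 2.0 on the log2 scale. A row that reaches 2.0 in only some groups was thus kept through those groups. Markers of the mesenchymal and basal state of MDA-MB-231 (VIM, CD44 and others) had a row for 10 of 10 genes and summed to 3524 to 3901 CPM in every group. Of the luminal epithelial, stromal fibroblast and haematopoietic markers, 5 of 12, 2 of 7 and 2 of 7 had a row. The luminal rows summed to 768 to 942 CPM with scramble, 628 to 771 with CDH2 and 789 with Cx43 shRNA. The fibroblast rows summed to 53.7 to 66.3, 40.4 to 52.6 and 29.6 to 40.2 CPM, and the haematopoietic rows to 22.9 to 23.6, 23.8 to 26.1 and 16.8 to 19 CPM, in the same order. The fibroblast sum, which is COL1A1 and PDGFRB, had the same order of groups as MALAT1 with no overlap, and its part in the results was not tested. COL1A1 alone did not have that order, with mean log2(CPM + 1) levels of 3.81 with scramble, 3.97 with CDH2 and 2.89 with Cx43 shRNA. No defining marker with a row was at 0.

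MALAT1 is annotated at chr11:65497640-65508073 on the plus strand, as a single exon. Its log2(CPM + 1) level was 10.50, 10.45 and 10.54 with scramble shRNA, 10.13, 10.12 and 10.06 with CDH2 shRNA, and 9.71 and 9.76 with Cx43 shRNA. All 3 groups were apart, with every scramble library above every CDH2 library and these above both Cx43 libraries. In CPM, MALAT1 was between 1399 and 1483 with scramble, between 1069 and 1119 with CDH2 and between 835 and 866 with Cx43 shRNA. Its share of the summed CPM of a library was 0.199% to 0.217% with scramble and 0.115% to 0.122% with Cx43 shRNA.

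With CDH2 shRNA, MALAT1 fell by 0.39 on the log2 scale (SE 0.08), to 0.764 times the scramble level. The adjusted p was 0.0339 by limma, in a model of all 8 libraries with the replicate number as a block, and MALAT1 was lower in 3 of 3 replicate numbers. The study's rule for a changed gene asks for an adjusted p under 0.05 together with a minimum size, 0.73 on the log2 scale for CDH2 shRNA and 0.58 (1.5-fold) for Cx43 shRNA, and the CDH2 difference did not reach that size. With Cx43 shRNA, MALAT1 fell by 0.76 (SE 0.09), to 0.59 times the scramble level, with an adjusted p of 0.0354 by limma, lower in 2 of 2 replicate numbers, and it was past the rule. The CDH2 and Cx43 lines themselves differed by 0.37 (95% interval 0.15 to 0.59), with a p of 0.00619 before and 0.143 after adjustment in limma, so the larger fall with Cx43 shRNA did not pass the test of the difference. Both knockdowns are compared with the same scramble libraries.

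The MALAT1 calls depend on single libraries, as do nearly all calls in these data. With Cx43 shRNA the adjusted p in limma rose to 0.314 without scramble replicate 1, 0.0891 and 0.0673 without CDH2 replicate 1 or 2, and 0.255 and 0.34 without Cx43 replicate 1 or 2, where the estimates ran from -0.80 to -0.72. With CDH2 shRNA it rose to 0.274 without scramble replicate 1, to 0.152 and 0.0913 without CDH2 replicate 1 or 2, and to 0.0731 without either Cx43 library, at estimates of -0.41 to -0.39. In these fits at most 10 of all 12939 genes had an adjusted p under 0.05 with CDH2 shRNA and at most 5 with Cx43 shRNA. MALAT1 lies over the antisense RNA TALAM1, which was not analysed here, and since no source states that counting used the strand, reads of the pair cannot be told apart.

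NEAT1 lies at chr11:65422774-65445540 on the plus strand. Its log2(CPM + 1) level was 7.86, 7.57 and 8.13 with scramble, 8.12, 8.13 and 7.71 with CDH2, and 7.71 and 8.0 with Cx43 shRNA. The groups overlapped. The difference was 0.13 (SE 0.20) with CDH2 shRNA, with an interval of -0.36 to 0.63 and an adjusted p of 0.654 by limma, and 0.00 (SE 0.24) with Cx43 shRNA, with an interval of -0.58 to 0.58. The row does not separate the short and the long isoform of NEAT1. Without scramble replicate 3 or CDH2 replicate 3, the difference with CDH2 shRNA was 0.41 and its adjusted p in limma 0.0315, and without scramble replicate 2 its sign turned, to -0.09.

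**Figure D1:**
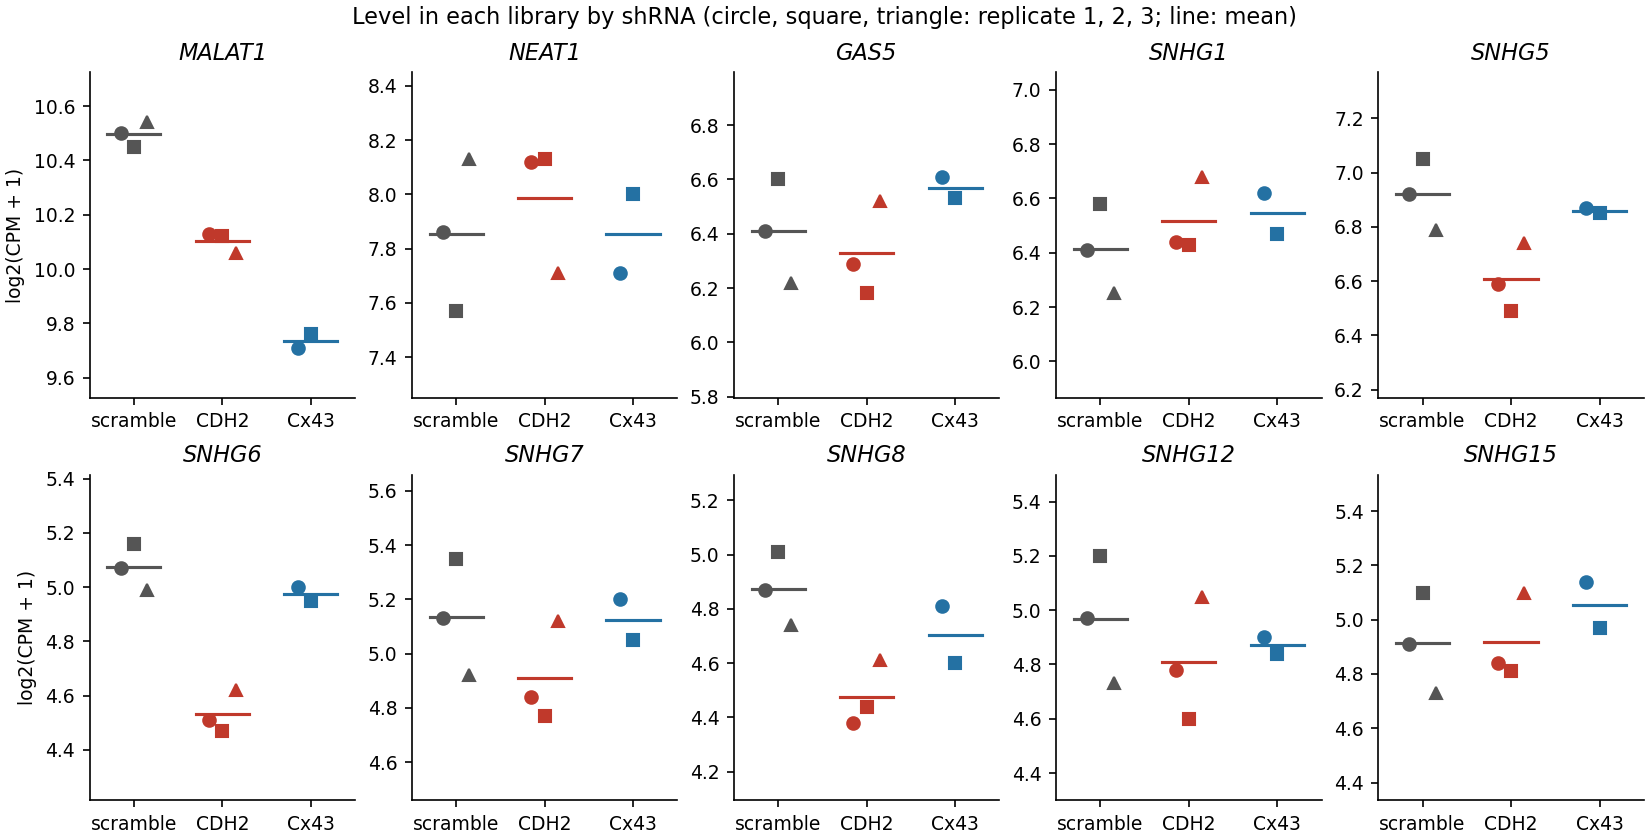
Level of each RNA, as log2(CPM + 1) on the y axis, in the 3 scramble, 3 CDH2 shRNA and 2 Cx43 shRNA libraries, with a point per library and a line at the group mean. Each panel spans the same height on the log2 scale, and the groups of MALAT1 are fully apart, while those of NEAT1 overlap.

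SNHG6, host of SNORD87, was the host RNA that fell with CDH2 shRNA. It lies at chr8:66920561-66926398 on the minus strand. Its log2(CPM + 1) level was 5.07, 5.16 and 4.99 with scramble, 4.51, 4.47 and 4.62 with CDH2, and 5.00 and 4.95 with Cx43 shRNA. The CDH2 libraries were all below the others, and the Cx43 libraries overlapped the scramble libraries. SNHG6 fell by 0.54 (SE 0.09) with CDH2 shRNA, to 0.688 times the scramble level, with an adjusted p of 0.0256 by limma, lower in 3 of 3 replicate numbers. With Cx43 shRNA the difference was -0.10 (SE 0.10), with an interval of -0.35 to 0.16 and an adjusted p of 0.635. Set directly against Cx43 shRNA, the CDH2 estimate was -0.44 on the log2 scale (interval -0.70 to -0.19), with a p of 0.00584 and an adjusted p of 0.143 by limma, so the difference between the knockdowns did not pass. The adjusted p for CDH2 shRNA rose to 0.193 without scramble replicate 1, 0.126 and 0.0866 without CDH2 replicate 1 or 2, and 0.0602 without either Cx43 library, at estimates of -0.62 to -0.47 over all alternatives. SNHG6 overlaps the gene MCMDC2 on the opposite strand, which was not analysed here.

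SNHG8 and SNHG5 had the next largest differences with CDH2 shRNA and did not pass the adjusted test. SNHG8 (chr4:118278703-118285316, plus strand), host of SNORA24, was at 4.87, 5.01 and 4.74 with scramble, 4.38, 4.44 and 4.61 with CDH2, and 4.81 and 4.60 with Cx43 shRNA. Its CDH2 estimate was -0.40 (SE 0.12) with an adjusted p of 0.0741 by limma, and its Cx43 estimate -0.17 (SE 0.14). SNHG5 (chr6:85650491-85678932, minus strand), host of SNORD50A and SNORD50B, was at 6.92, 7.05 and 6.79 with scramble, 6.59, 6.49 and 6.74 with CDH2, and 6.87 and 6.85 with Cx43 shRNA. Its CDH2 estimate was -0.31 (SE 0.11) with an adjusted p of 0.103 by limma, and its Cx43 estimate -0.06 (SE 0.13). In both RNAs the CDH2 libraries lay below every scramble library. Without the replicate block, the adjusted p of SNHG8 was 0.0153 and that of SNHG5 was 0.0253 with CDH2 shRNA, so both calls turn on the block, and the same 2 passed without scramble replicate 3 or CDH2 replicate 3, at 0.00567 and 0.0103.

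The other hosts gave no call. GAS5 (chr1:173858559-173868882, minus strand) was at 6.41, 6.60 and 6.22 with scramble, 6.29, 6.18 and 6.52 with CDH2, and 6.61 and 6.53 with Cx43 shRNA. Its estimates were -0.08 (interval -0.43 to 0.27) with CDH2 and 0.16 (interval -0.25 to 0.57) with Cx43 shRNA. SNHG1 (chr11:62851978-62855953, minus strand), host of a series of box C/D snoRNAs, was at 6.41, 6.58 and 6.25 with scramble, 6.44, 6.43 and 6.68 with CDH2, and 6.62 and 6.47 with Cx43 shRNA. Its estimates were 0.11 (interval -0.22 to 0.43) and 0.14 (interval -0.24 to 0.52). Neither RNA separated a knockdown from scramble.

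SNHG7 (chr9:136721366-136728184, minus strand) was at 5.13, 5.35 and 4.92 with scramble, 4.84, 4.77 and 5.12 with CDH2, and 5.20 and 5.05 with Cx43 shRNA. SNHG12 (chr1:28578538-28583132, minus strand) was at 4.97, 5.20 and 4.73 with scramble, 4.78, 4.60 and 5.05 with CDH2, and 4.90 and 4.84 with Cx43 shRNA. SNHG15 (chr7:44983019-44986961, minus strand) was at 4.91, 5.10 and 4.73 with scramble, 4.84, 4.81 and 5.10 with CDH2, and 5.14 and 4.97 with Cx43 shRNA. These 3 hosts had overlapping groups in both comparisons. With CDH2 shRNA the estimates were -0.22 (SE 0.16) for SNHG7, -0.16 (SE 0.17) for SNHG12 and 0.00 (SE 0.14) for SNHG15, and with Cx43 shRNA they were -0.01 (SE 0.18), -0.10 (SE 0.20) and 0.14 (SE 0.17). Without scramble replicate 3 or CDH2 replicate 3, the adjusted p with CDH2 shRNA was 0.0151 for SNHG7 and 0.0256 for SNHG12 in limma. Replicate 3 of scramble and of CDH2 lay on opposite sides of their group means in all of these hosts, as the run correction described under the processing requires. On the opposite strand SNHG8 overlaps PRSS12, which was at -0.01 and 0.88 (adjusted p 0.0754 by limma) with CDH2 and Cx43 shRNA, and SNHG12 overlaps TRNAU1AP, which was at -0.36 and -0.09. PRSS12 reached 2.0 only with Cx43 shRNA, so its row was kept through that group. Neither partner passed, and their reads and those of the hosts cannot be told apart without strand.

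Counted over the 10 RNAs, 0 were past the rule of adjusted p and fold with CDH2 shRNA by limma, where 2.06% of all genes were. With the adjusted p alone, MALAT1 and SNHG6 passed, 2 of 10, against 14.3% of all genes, and 4 of 10 passed an unadjusted p under 0.05, against 37.5% of all genes. The CDH2 libraries lay wholly below the scramble libraries for 4 of 10, against 24.8% of all genes. With 10 RNAs, these counts are near the shares of all genes. The median estimate was -0.19 over the 10 RNAs and 0.01 over all genes, and that of the 10 RNAs was -0.05 without CDH2 replicate 2, -0.07 without scramble replicate 2 and -0.37 without scramble replicate 3 or CDH2 replicate 3. With Cx43 shRNA, MALAT1 was the 1 of 10 past the rule, against 1.18% of all genes, and the 1 of 10 under an adjusted p of 0.05, against 1.21%. It was also the 1 RNA whose Cx43 libraries lay wholly below the scramble libraries, against 21.4% of all genes. The median estimate was -0.03 over the 10 RNAs and 0.04 over all genes.

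Between the knockdowns, limma called 0 of the 10 RNAs, as it called 0% of all genes by the adjusted p with or without the fold change, while 2 of 10 (MALAT1 and SNHG6) and 2591 of all genes had an unadjusted p under 0.05. GAS5, SNHG5 and SNHG6 were lower in every CDH2 than in every Cx43 library, 3 of 10 against 29.1% of all genes, and MALAT1 was higher, 1 of 10 against 21.8%. All 8 hosts had a negative estimate in this comparison, between -0.44 and -0.03, as did 54.8% of all genes.

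**Figure D2:**
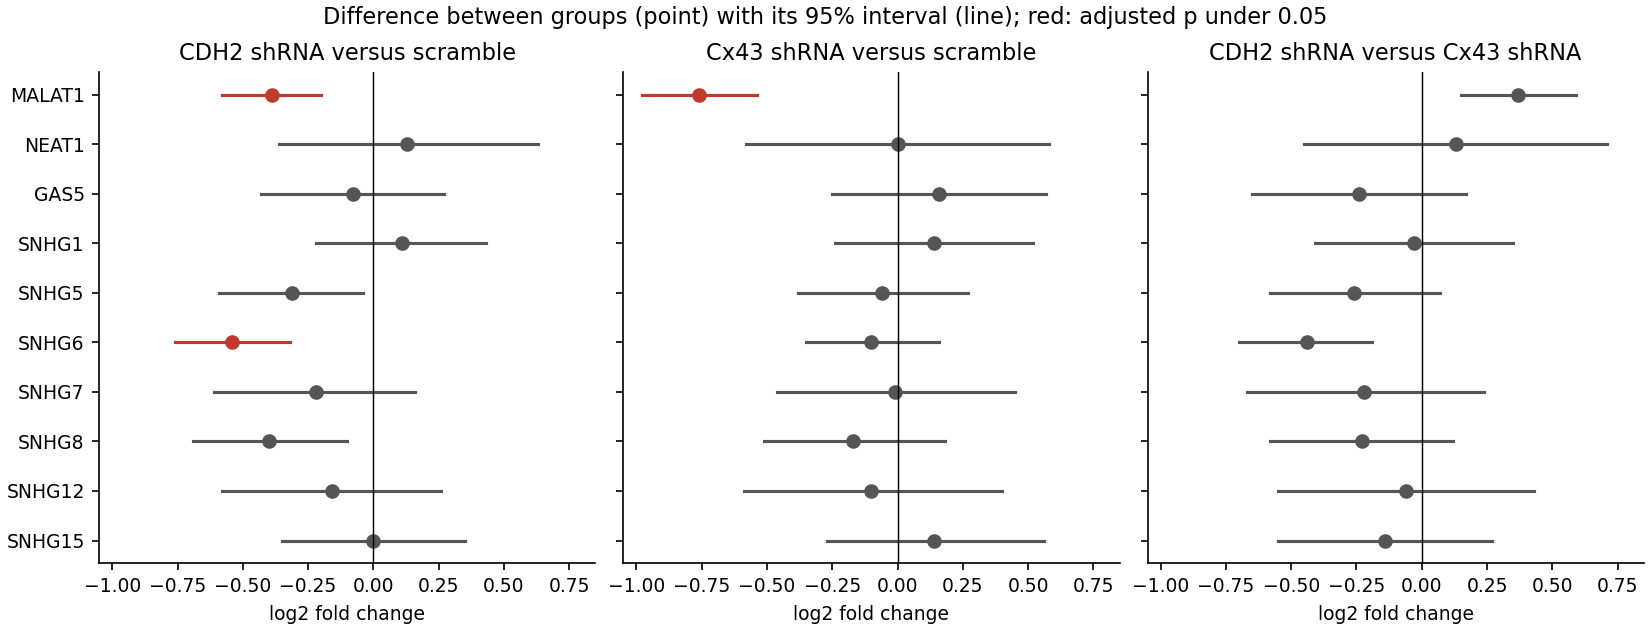
Difference between groups on the log2 scale (x axis) for each RNA, as a point with its 95% interval from limma, in the 3 comparisons. Red marks an adjusted p under 0.05, which MALAT1 and SNHG6 reached with CDH2 shRNA and MALAT1 with Cx43 shRNA.

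Levels of different RNAs were compared per length, as CPM per kb of the canonical GENCODE transcript. In the scramble libraries MALAT1 was highest at 138 ± 4.02 CPM per kb (SD, n = 3), followed by GAS5 at 110 ± 14.5, SNHG5 at 91.5 ± 8.43 and SNHG1 at 72.6 ± 8.43. Then came SNHG6 at 17.9 ± 1.09, SNHG12 at 16.3 ± 2.76, SNHG7 at 14.6 ± 2.23, NEAT1 at 10.3 ± 1.97, SNHG15 at 9.75 ± 1.3 and SNHG8 at 4.61 ± 0.442. In that order the ranges of GAS5 and SNHG5, of SNHG6 and SNHG12, of SNHG12 and SNHG7, and of NEAT1 and SNHG15 overlapped. With Cx43 shRNA, MALAT1 was at 81.5 ± 2.12 CPM per kb (SD, n = 2), below GAS5 at 123 ± 5.2 and SNHG5 at 87.6 ± 1.01, and its range overlapped that of SNHG1 at 79.7 ± 6.25. The order depends on the transcript taken for the length, which is 22743 bases for NEAT1, its long isoform, and 6166 bases for SNHG8.

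**Figure D3:**
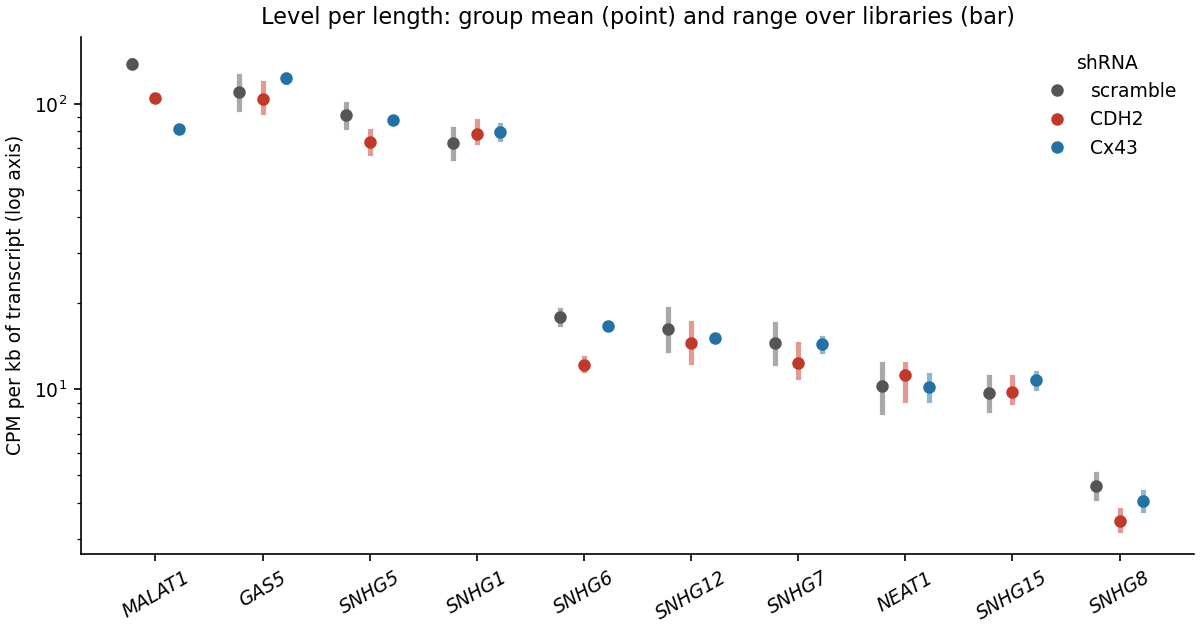
CPM per kb of the canonical transcript on a log axis, with the group mean as a point and the range over libraries as a bar. MALAT1, GAS5, SNHG5 and SNHG1 stood above 60 CPM per kb in every group, and the other RNAs below 20.

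Other snoRNA host lncRNAs were read beside these from a list of 24 genes, of which 15 were measured. SNHG4 rose in both knockdowns. Its log2(CPM + 1) level was 2.36, 2.32 and 2.38 with scramble, 3.38, 3.32 and 3.31 with CDH2, and 3.13 and 3.22 with Cx43 shRNA, with no overlap between control and knockdown. It rose by 0.99 (SE 0.08, adjusted p 0.016 by limma) and by 0.82 (SE 0.09, adjusted p 0.0349), and was past the rule in both. Over 14 alternatives its adjusted p ran from 0.000138 to 0.0836 with CDH2 and from 4.14e-06 to 0.34 with Cx43 shRNA. SNHG4 lies within the 5′ part of the MATR3 locus on the same strand, and MATR3, which codes for a nuclear matrix and paraspeckle protein, rose by 0.33 with CDH2 shRNA (adjusted p 0.046 by limma), so reads may have been divided between them. SNHG20 rose by 0.37 with CDH2 shRNA (SE 0.07, adjusted p 0.0328 by limma). Its row reached 2.0 only in the knockdowns (1.87 to 1.89 with scramble), so it was kept through them and its rise is no independent support. The remaining 13 did not pass in either knockdown, among them SNHG16 at 0.27 and 0.36, DANCR at 0.09 and 0.34, ZFAS1 at -0.27 and -0.14 and SNHG11 at -0.36 and -0.27 with CDH2 and Cx43 shRNA. The list's median was -0.03 and 0.04, and its 2 calls among 15 with CDH2 shRNA are near the 14.3% of all genes called.

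Of 11 measured lncRNAs from a list of other widely studied ones, FTX, an RNA of the X inactivation centre, rose by 0.42 with CDH2 shRNA (adjusted p 0.0394 by limma), and 0 passed with Cx43 shRNA, where 3 had an unadjusted p under 0.05. With 11 RNAs, 1 call is near the 14.3% of all genes called with CDH2 shRNA. NORAD, a cytoplasmic RNA that binds Pumilio proteins, was at 0.24 and 0.19, and TUG1 at 0.39 and -0.04, without passing. These 2 were named after their values were seen.

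The snoRNAs themselves could be read only in part, since 1 of the 30 held by the hosts, SNORA17B of SNHG7, has a row. Its log2(CPM + 1) level was 2.56, 2.42 and 2.67 with scramble, 2.49, 2.41 and 2.27 with CDH2, and 2.22 and 2.44 with Cx43 shRNA. The groups overlapped, and its estimates were -0.16 and -0.22, beside -0.22 and -0.01 for SNHG7. Over all 46 small RNA rows (SNORD, SNORA, SCARNA, RNU, RN7SK, RN7SL, RMRP and RPPH1), 6 fell and 0 rose with CDH2 shRNA by an adjusted p in limma, 45 of 46 or all but RN7SL674P had a negative estimate, and the median was -0.26. Of all genes 14.3% were called and 49% had a negative estimate. With Cx43 shRNA 0 passed by limma and 10 had an unadjusted p under 0.05, all negative, beside 21.6% of all genes at that p, and the median was -0.22. Of the 46 estimates 38 were negative, as were 42.4% of all genes. RN7SK and RN7SL have many near-identical copies in the genome, so their rows are uncertain. Some of the 46 rows were kept through 1 group alone. SCARNA16, RNU2-63P and RN7SL128P reached 2.0 only with scramble, and RNU12 and SNORD118 only with Cx43 shRNA. The counts of negative estimates are in part fixed by such rows. The paper isolated RNA with the RNeasy Mini Kit, and how much of RNAs this short was recovered in each library is unknown. Their levels may differ with that recovery, which was not tested.

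The 3 small RNAs past the rule were RPPH1, RN7SK and SCARNA16. RPPH1 is the RNA subunit of RNase P, the enzyme that makes the 3′ end of MALAT1. It was at 10.76, 10.88 and 10.63 with scramble, 10.00, 9.74 and 10.07 with CDH2, and 10.20 and 10.34 with Cx43 shRNA, and fell by 0.82 (SE 0.13) with CDH2 shRNA (adjusted p 0.0237 by limma), while the Cx43 estimate of -0.49 had an adjusted p of 0.153. RN7SK, which holds the elongation factor P-TEFb inactive, fell by 1.18 (SE 0.23, adjusted p 0.0335 by limma) with CDH2 shRNA, and its Cx43 estimate was -1.14 (adjusted p 0.103). Over 15 alternatives RN7SK with CDH2 shRNA ran from -1.51 to -0.92, with an adjusted p of 9.11e-05 to 0.117, and was past the rule in 9. SCARNA16, a guide RNA of Cajal bodies, fell by 0.77 (adjusted p 0.0224 by limma) and had a Cx43 estimate of -0.79 (adjusted p 0.0614). It was at 2.45, 2.59 and 2.31 with scramble and at most 1.82 in the knockdowns. Its row was thus kept through the control alone, and its fall is no independent support.

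Of 207 protein-coding genes that host snoRNAs, 22 rose and 6 fell with CDH2 shRNA by the adjusted p in limma, with a median of 0.11, a share near the 14.3% of all genes, and 1 rose with Cx43 shRNA, KLHL23 by 0.70 (adjusted p 0.0384), with a median of 0.12. Past the rule with CDH2 shRNA were URB1, a factor of ribosome assembly, by 0.87, POLA1, the catalytic subunit of DNA polymerase alpha, by 0.78, and SRCAP, a chromatin remodelling ATPase, by 0.94. The 19 noncoding hosts outside the 10 RNAs had a median of -0.12 with CDH2 and 0.04 with Cx43 shRNA.

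The 84 genes named for cytosolic ribosomal proteins had a median of -0.27 with CDH2 shRNA, and 83 of 84 estimates were negative, beside 49% of all genes. Ribosomal protein mRNAs carry TOP tracts as a class, but the tract was not checked for these 84. The names take in paralogues such as RPS27L and RPL7L1. By the adjusted p in limma 3 fell, RPL39 by 0.71, RPS27L by 0.63 and RPS23 by 0.46, and 0 were past the rule. With Cx43 shRNA the median was 0.12, and 69 of 84 estimates were positive, beside 7458 of all 12939 genes. There 0 passed by limma, while 5 had an unadjusted p under 0.05, beside 21.6% of all genes. Beside the ribosomal protein genes, the 8 snoRNA hosts had a median of -0.19 with CDH2 shRNA, with 6 negative estimates, and of -0.03 with Cx43 shRNA, with 5 negative estimates. The hosts with a pyrimidine tract in the sequences above, SNHG5, SNHG7, SNHG8 and SNHG12, were at -0.31, -0.22, -0.40 and -0.16 with CDH2 shRNA, and SNHG1 and GAS5, without one at the listed start, at 0.11 and -0.08. SNHG6 and SNHG15, for which no start was read, were at -0.54 and 0.00. The tract of SNHG8 lies mostly upstream of its start, and the start of GAS5 differs between annotations. This is a description of 8 genes, its split depends on the start and the letters asked for, and the tract was not tested. In the list of 18 regulators of mTOR and TOP mRNAs, 0 passed in either knockdown by limma, where 7 and 0 had an unadjusted p under 0.05, beside 37.5% and 21.6% of all genes. The nearest were LARP4, which binds mRNA tails, at 0.38 (adjusted p 0.0532) and MTOR, the kinase that drives TOP translation, at 0.50 (adjusted p 0.0613) with CDH2 shRNA.

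**Figure D4:**
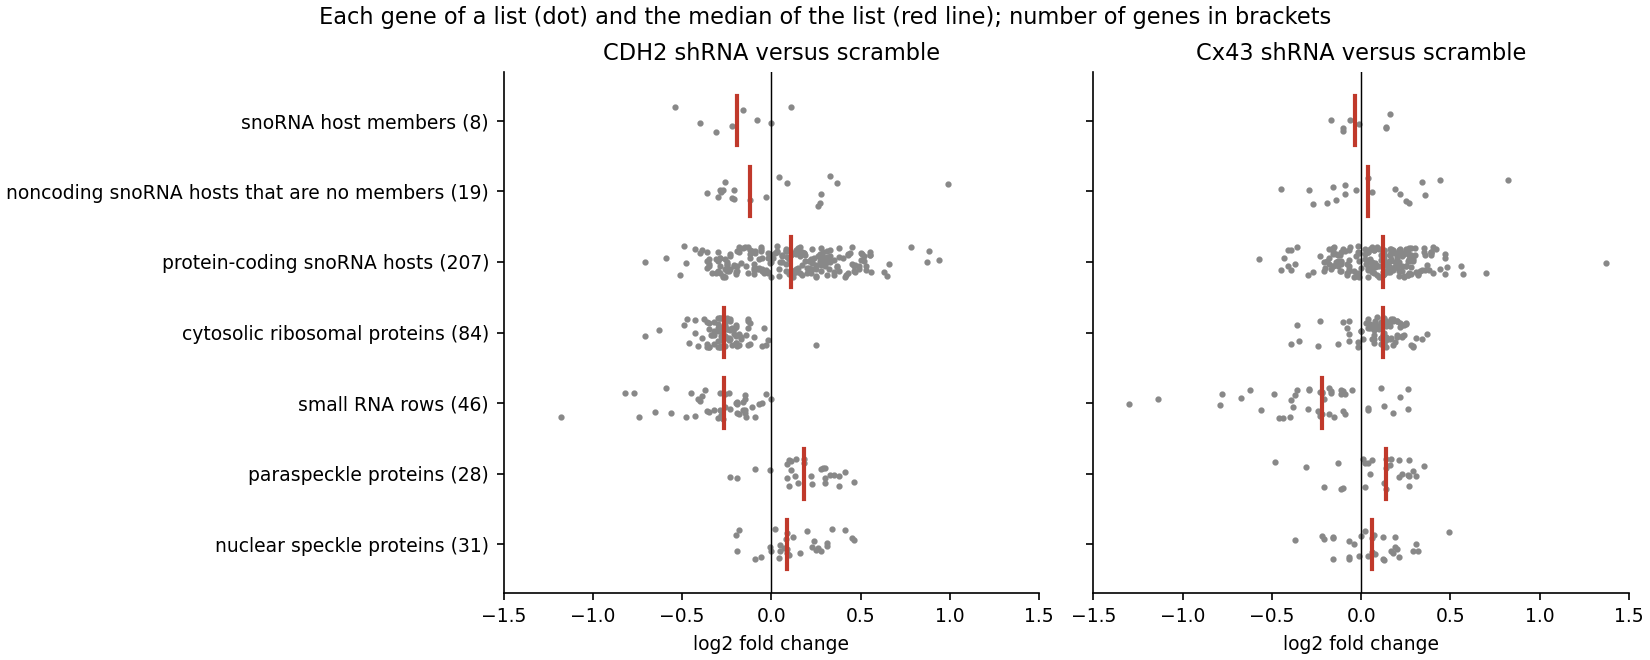
Difference from scramble on the log2 scale (x axis) for each gene of 7 lists, as a dot, with the list's median as a red line, for CDH2 shRNA (left) and Cx43 shRNA (right). The median of the 84 ribosomal protein genes was -0.27 with CDH2 and 0.12 with Cx43 shRNA, and that of the 46 small RNA rows was -0.26 and -0.22.

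The protein partners of MALAT1 and NEAT1 mostly had positive estimates with CDH2 shRNA. Of 28 paraspeckle proteins, 6 rose by the adjusted p in limma, 0 fell and 24 of 28 estimates were positive, with a median of 0.18, where 6600 of all 12939 genes had a positive estimate and 943 rose. RBM12 rose by 0.46 (adjusted p 0.0268) and FAM98A by 0.38 (adjusted p 0.0321), and 0 of 28 were past the rule. Of 31 nuclear speckle proteins, 4 rose and 0 fell, near the 14.3% of all genes called, with a median of 0.09. Among them were PNN, a splicing regulator, by 0.41 (adjusted p 0.0295 by limma) and SON, a core scaffold of speckles, by 0.46 (adjusted p 0.0333). With Cx43 shRNA 0 of either list passed by limma, 7 of 28 and 3 of 31 had an unadjusted p under 0.05, and the medians were 0.14 and 0.06. RBM12 was at 0.35 and PNN at 0.49 there.

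Of 10 genes for the 3′ end processing and stability of MALAT1 and NEAT1, 1 rose with CDH2 shRNA, METTL3, the methyltransferase that sets m6A, by 0.35 (adjusted p 0.0406 by limma), and its Cx43 estimate was 0.38 (adjusted p 0.107). The count of 1 in 10 is near the 14.3% of all genes called with CDH2 shRNA. ELAC2, the RNase Z that trims mascRNA, was at 0.15 and 0.14 and did not pass. Nonsense-mediated decay, which degrades the spliced exons of snoRNA hosts, was read from 24 factors, of which 4 rose and 0 fell with CDH2 shRNA, also near the 14.3% of all genes called, with a median of 0.11. SMG1, the kinase that phosphorylates UPF1, was past the rule at 0.77 (SE 0.16, adjusted p 0.0388 by limma), and its Cx43 estimate was 0.16 (adjusted p 0.659). With Cx43 shRNA 0 of 24 passed by limma and 4 had an unadjusted p under 0.05.

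Of 15 measured box C/D proteins and assembly factors, 2 rose with CDH2 shRNA, NOLC1, a nucleolar chaperone of snoRNA particles, by 0.51 (adjusted p 0.0253 by limma) and TGS1, which trimethylates snoRNA caps, by 0.34 (adjusted p 0.0374). This count is near the 14.3% of all genes called. NOLC1 was at 0.65 with Cx43 shRNA (adjusted p 0.0511). Of 10 box H/ACA proteins 0 passed in either knockdown by limma, with 2 and 1 at an unadjusted p under 0.05, and DKC1, the pseudouridine synthase, was at 0.29 and 0.25.

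Beside these results, EPCAM of the luminal list fell by 0.37 (adjusted p 0.0349), LGALS1 of the mesenchymal list by 0.65 (adjusted p 0.0335) and PDGFRB of the fibroblast list by 0.63 (adjusted p 0.0442) with CDH2 shRNA by limma, and PDGFRB was at -0.72 with Cx43 shRNA (adjusted p 0.103). The lists did not move as one. Of the 10 mesenchymal estimates with CDH2 shRNA 6 were positive, with a median of 0.10, while all 5 luminal estimates were negative. COL1A1, the other fibroblast marker with a row, was at 0.16. The part of these markers in the differences of MALAT1 and SNHG6 was not tested.

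**Figure D5:**
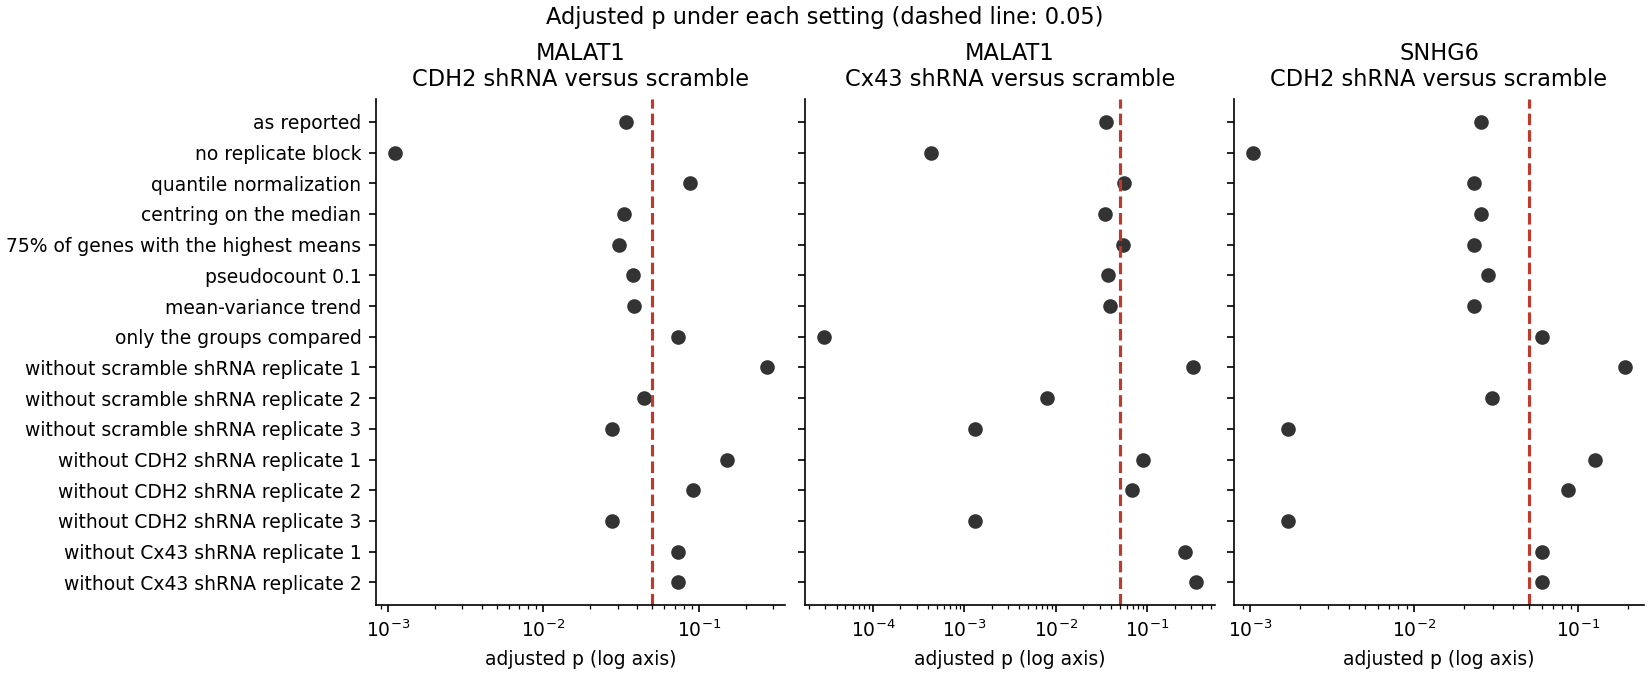
Adjusted p from limma (x axis, log scale) for MALAT1 in both knockdowns and SNHG6 with CDH2 shRNA, under the fit as reported and 15 alternatives, with a dashed line at 0.05. Under 8 alternatives each for MALAT1 and 9 for SNHG6 the adjusted p stayed under 0.05, and some alternatives coincide with each other. The fit without the replicate block gives p-values that are too small.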

How the data were processed

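RNA was measured by RNA-Seq in 8 libraries, grouped by the shRNA that the labels name. In Partek Flow, per the methods, reads were aligned by the authors to hg38 with STAR (2.6.1 in the submitters' processing notes), and genes were quantified by expectation maximization. The authors then left out 1 library of low quality, corrected for the sequencing runs and dropped weakly expressed genes. Values were deposited as log2(CPM + 1), and none of these steps was repeated. A row without a gene name was left out, and no whole reads could be recovered (at least 496 distinct values among the 500 lowest).

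Group differences were tested with limma 3.58.1 (R 4.3.3) in 1 model of the 8 libraries with terms for group and for the labels' replicate number (a block), since the run effect had been removed. Residual degrees of freedom were 3, and limma's prior added 2.84. P-values are two-sided, with Benjamini-Hochberg adjustment over 12939 genes. Because of the run correction, within each replicate number the libraries' deviations from their group means cancel (to 1.0e-04), so they mirror each other, and the correlation of same-numbered libraries cannot show pairing. The test was checked on simulated data. Figures were drawn with matplotlib in Python.

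GENCODE v44 (hg38) gave gene positions and lengths, and RefSeq gave snoRNAs and start sites. The 10 RNAs and all lists were chosen with earlier results of these data known. The text names all 10 RNAs, measured genes of the list of other hosts, and of each other list the genes past the rule or, failing that, among those with the smallest adjusted p, with MATR3, RPS23, TUG1, NORAD, ELAC2, SNORA17B, EPCAM, LGALS1, PDGFRB and RN7SL674P added. The alternatives are in the closing section. An item withheld for evaluation is not reported here.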

Additional observations from a re-analysis of the deposited data

How the results depend on the processing

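The fit was repeated with a mean-variance trend, with a pseudocount of 0.1, after quantile normalization or median centring, on the upper 75% of genes by mean, on only the groups compared, without the replicate block, and without each library in turn. Of 450 estimates for the 10 RNAs, 415 kept direction and side of the rule with its fold change, 28 changed sign and 7, all for MALAT1 with Cx43 shRNA, lost the rule. By the adjusted p alone, the CDH2 calls of MALAT1 and SNHG6 were kept in 8 and 9 of 15 alternatives, and SNHG5 and SNHG8 passed in 3 each and NEAT1, SNHG7 and SNHG12 in 2 each. The 15 are not all distinct, and the fit without the replicate block gives p-values that are too small, as set out below. With CDH2 shRNA, leaving out either Cx43 library gave the same values as only the groups compared. The fits without scramble replicate 3 and without CDH2 replicate 3 also coincide, and they are the 2 in which NEAT1, SNHG7 and SNHG12 passed. The 28 had reported estimates within 0.16 of 0, of which SNHG15 with CDH2 shRNA turned to -0.01 under quantile normalization and NEAT1 with Cx43 shRNA to 0.14 with only the groups compared. Without the replicate block 4 of the 10 RNAs had an adjusted p under 0.05 with CDH2 shRNA, in place of 2, as did 5607 of 12939 genes, in place of 1846. The adjusted p of MALAT1 in limma was then 0.0011 and 0.000434 in the knockdowns and 0.00519 between them, and that of SNHG6 between them 0.00761. The run correction had already removed the replicate terms, which this fit does not count, so its p-values are too small. With CDH2 shRNA the adjusted p of MALAT1 was 0.0872 after quantile normalization, and with only the groups compared it was 0.0731 for MALAT1 and 0.0602 for SNHG6. The replicate numbers mirror each other by the run correction, so the pairing itself was not tested.

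The RNAs past the rule with CDH2 shRNA were 2 with the adjusted p alone. With Cx43 shRNA they were 0 under quantile normalization and 0 with the upper 75% of genes by mean, where the adjusted p of MALAT1 was 0.0553 and 0.0536, and 0 to 1 when a library was left out. The median over the 10 RNAs between the knockdowns was -0.26 with only the groups compared and -0.27 to -0.06 without a library, with CDH2 shRNA -0.37 to -0.05 without a library, and with Cx43 shRNA -0.12 to 0.11 without a library. The paper, which used Partek GSA, reports more changed genes in each knockdown than limma called here, and more with Cx43 than with CDH2 shRNA. In limma, all genes past the rule numbered 267 with CDH2 shRNA, 153 with Cx43 shRNA and 0 between them. The counts became 150 with CDH2 shRNA and 4 with Cx43 shRNA for the upper 75%, 0, 741 and 414 with only the groups compared, 532 with Cx43 shRNA and 360 between them without the replicate block, and 0 to 723, 0 to 730 and 0 to 545 without a library. The cause was not tested.

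Without a library, with CDH2 shRNA, NEAT1 ran from -0.09 to 0.41, GAS5 from -0.27 to 0.07, SNHG1 from -0.06 to 0.24, SNHG12 from -0.40 to 0.03 and SNHG15 from -0.18 to 0.15. With Cx43 shRNA, NEAT1 ran from -0.28 to 0.21, SNHG5 from -0.12 to 0.07, SNHG7 from -0.12 to 0.21 and SNHG12 from -0.22 to 0.14. Without a change of sign, SNHG7 with CDH2 shRNA ran from -0.44 to -0.05 over all alternatives, and with Cx43 shRNA GAS5 ran from 0.07 to 0.35, SNHG1 from 0.02 to 0.30 and SNHG15 from 0.02 to 0.33. Between the knockdowns, NEAT1 ran from -0.08 to 0.35, SNHG1 from -0.15 to 0.09 and SNHG12 from -0.18 to 0.15. Without scramble replicate 3 or CDH2 replicate 3, 7 of the 10 RNAs (MALAT1, NEAT1, SNHG5, SNHG6, SNHG7, SNHG8 and SNHG12) had an adjusted p under 0.05 with CDH2 shRNA, as did 5309 of 12939 genes. These 2 fits coincide, since only these 2 libraries carry the number 3 and the block then absorbs the other. Why more genes passed in them was not tested. Without scramble replicate 1, CDH2 replicate 1 or 2, or either Cx43 library, 0 of the 10 RNAs did, nor did more than 10 of the 12939 genes. A lone Cx43 library is assumed to vary like the other groups. The 2 or 3 libraries per group and the unknown depth limit the precision.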
